A study of Mus musculus with 6 samples.

Results

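The genes described here are 10 genes that set how cells pass the G1 phase of the cell cycle: the D-type cyclins Ccnd1, Ccnd2 and Ccnd3, their kinases Cdk4 and Cdk6, the activating phosphatase Cdc25a, the CDK inhibitors Cdkn1b (p27) and Cdkn2c (p18), and the growth regulators Myc and Mycn. They were taken by name from the 55471 genes of the count tables. The data are RNA-seq read counts from the rostral-most telencephalic primordium of E11.5 mice, with 3 control and 3 Rx-Dicer libraries. Embryos of both groups carried floxed Dicer on both alleles (DicerF/F, from the line Dicer1tm1Bdh/J kept on C57BL/6). Rx-Dicer embryos (RxCre-DicerF/F) also carried Rx3-Cre, from a line kept on CD1, and controls carried no Cre, although their genotype is labelled WT. Cre was driven by regulatory sequences of Rax (Rx). By the study's account its recombination was high in the rostral and ventral telencephalon and low in the neocortex at this age, so a dissected piece could hold cells that kept Dicer. Embryos were of either sex, and whether tissue of several embryos was pooled is not given in the labels, so the p-values measure only the spread between these samples.

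D-type cyclins are made in response to growth signals and bind CDK4 or CDK6. The complexes phosphorylate RB, which frees E2F factors to switch on genes of S phase. CDK inhibitors hold the kinases back, CDC25A removes an inhibitory phosphate from cyclin-dependent kinases, and MYC and MYCN drive biosynthesis and growth. Dicer cuts miRNA precursors into mature miRNAs, and the let-7, miR-15/16 and miR-34 families are textbook repressors of several of these genes. By the study's account few mature miRNAs were significantly reduced in these mutants at E11.5, and most of them were let-7 members. The miRNA levels were not examined here. The comparison asks how the transcripts of the G1 machinery stood in tissue from which Dicer had been deleted early.

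One gene of the 10, Cdk6, was called different between the genotypes, with more transcript in Rx-Dicer embryos (fold 1.68, 95% interval 1.23 to 2.31). The other 9 were not called. A call required an adjusted p below 0.05 in DESeq2 together with a rise of over 25% or a fall of the same size on the log scale, and 2.93% of the 17128 genes tested met it. edgeR's quasi-likelihood test, run on 17954 genes, called none of the 10 and 0.0446% of its genes. At an unadjusted p under 0.05 there were 3 of the 10 genes in DESeq2 (Cdk6, Cdk4 and Cdkn2c), where 13.1% of all tested genes were, and 2 in edgeR (Cdk6 and Cdk4), where 12.9% were. The 3 Rx-Dicer values lay wholly outside the 3 control values for 2 of the 10, Cdk6 above and Cdk4 below, and for 19.3% of all tested genes. The median log2 fold change was 0.029 over the 10 genes and -0.00087 over all tested genes, and the median size of change, whatever its sign, was 0.16 in both. All 10 were well expressed, with at least 423 raw reads in every library.

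**Figure D1:**
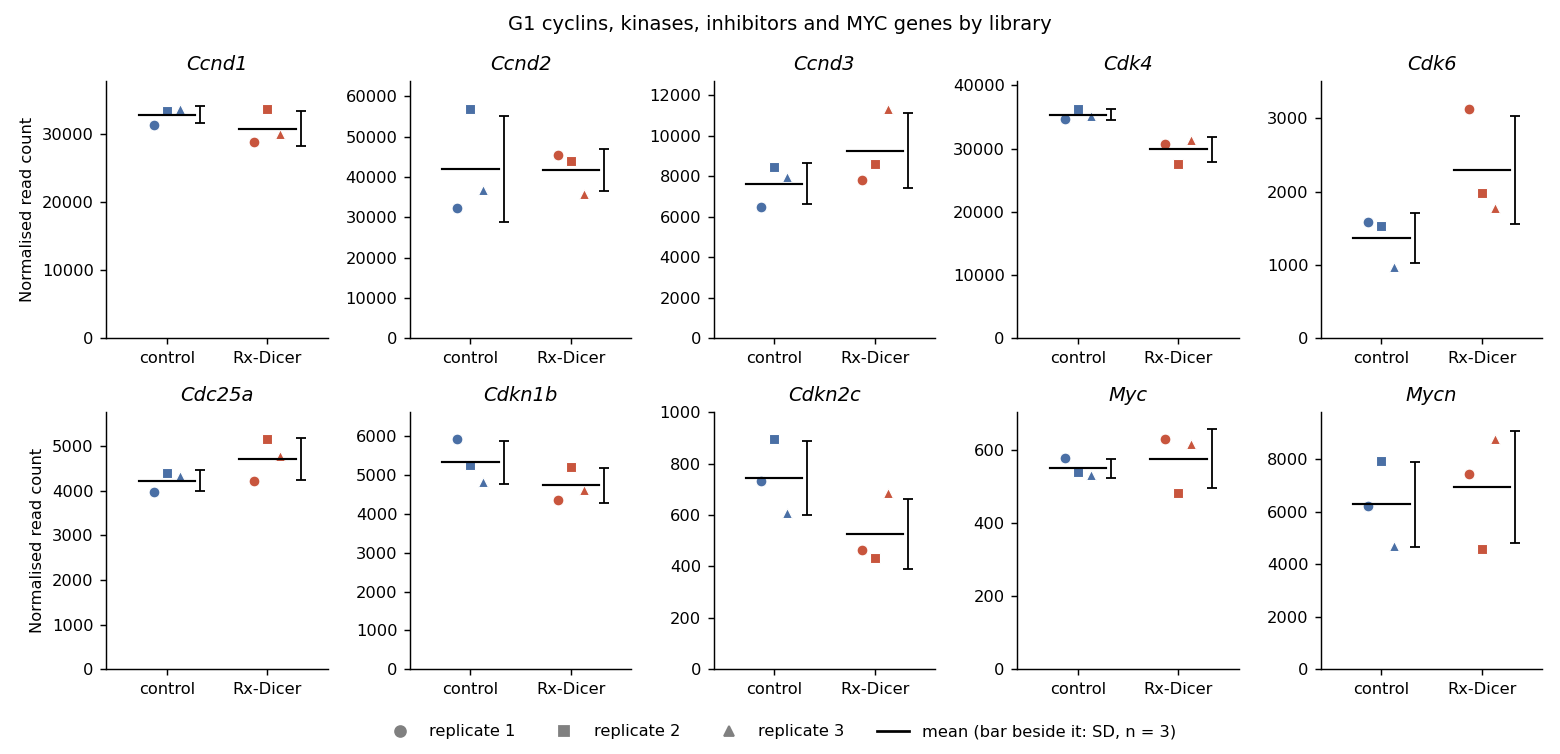
Normalised read count (vertical axis, from 0) of each gene in 3 control (blue) and 3 Rx-Dicer (red) libraries; symbols give the replicate number, lines the mean and bars the SD. Cdk6 lies higher and Cdk4 lower in all 3 Rx-Dicer libraries, and the groups overlap for the other 8 genes.

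**Figure D2:**
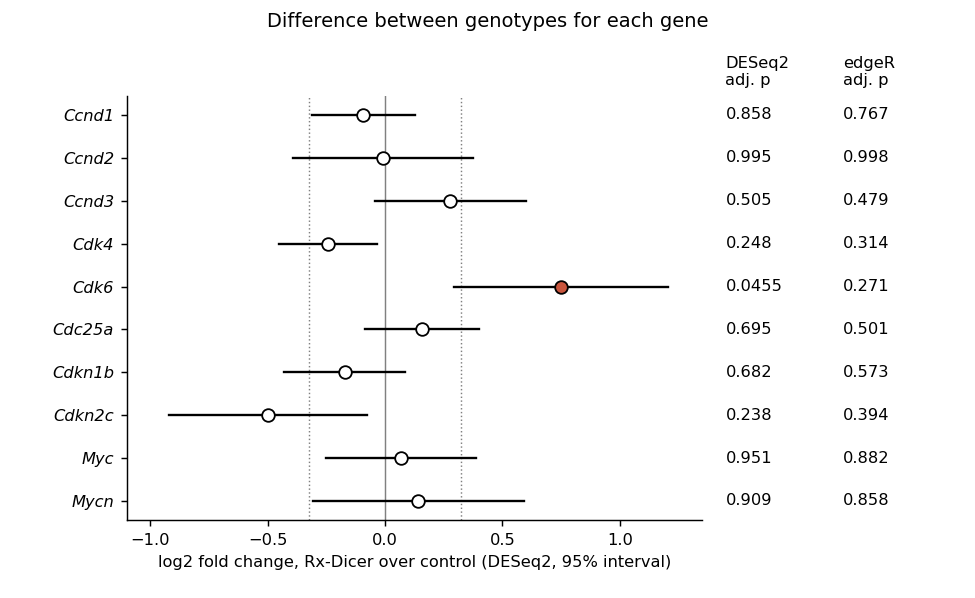
DESeq2 log2 fold change of Rx-Dicer over control (horizontal axis) with its 95% interval for each gene, and the adjusted p of DESeq2 and edgeR at the right; dotted lines mark the change that a call requires. Cdk6 (filled) is the called gene, at 0.75 with an adjusted p of 0.0455 in DESeq2 and 0.271 in edgeR.

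The miRNA families were searched as seed matches in the longest annotated 3′ UTR of each of the 10 genes (GENCODE M21, GRCm38). A site is a stretch of the transcript complementary to bases 2 to 8 of the miRNA, an 8-base site has an A after it, and an A-anchored site pairs with bases 2 to 7 and is followed by an A. The mature sequences that define the words are shown for 4 families, from RefSeq (GRCm38.p6), with the seed in capitals.
mmu-let-7a-5p: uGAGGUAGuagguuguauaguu
mmu-miR-16-5p: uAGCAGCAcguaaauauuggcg
mmu-miR-34a-5p: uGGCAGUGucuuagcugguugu
mmu-miR-221-3p: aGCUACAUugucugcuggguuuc
These seeds give the transcript words CTACCTC for let-7, TGCTGCT for miR-15/16, CACTGCC for miR-34 and ATGTAGC for miR-221, read on the transcript strand. The families of miR-9 (ACCAAAG), miR-17 (GCACTTT) and miR-26 (TACTTGA) were searched in the same way.

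With all 3 kinds of site counted, 6 of the 10 genes held a let-7 site, against 17.2% of 14037 expressed protein-coding genes. Without the A-anchored kind, whose let-7 word is TACCTCA and which was added after the first search, 2 of the 10 held one, against 10.7%. A miR-15/16 site of any kind stood in 5 of the 10 (28.1% of all genes), a miR-34 site in 4 (23.7%), a miR-17 site in 4 (22.0%), a miR-9 site in 3 (23.2%), a miR-26 site in 2 (21.2%) and a miR-221 site in 2 (18.3%). These shares rise with UTR length, and the UTRs of the 10 genes ran from 373 bases for Cdkn2c to 10217 for Cdk6, around a median of 1204 over all genes searched. Among the 615 genes whose 3′ UTR was at least 5108 bases, 55.6% held a let-7 site of any kind. Of the 10 genes only Cdk6 and Ccnd2 have UTRs that long, and no share was computed for the lengths of the others. The families were chosen as textbook regulators of these genes, so a higher share here than over all genes can follow from that choice. Such matches describe the sequence and do not show that a miRNA acts on it.

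**Figure D3:**
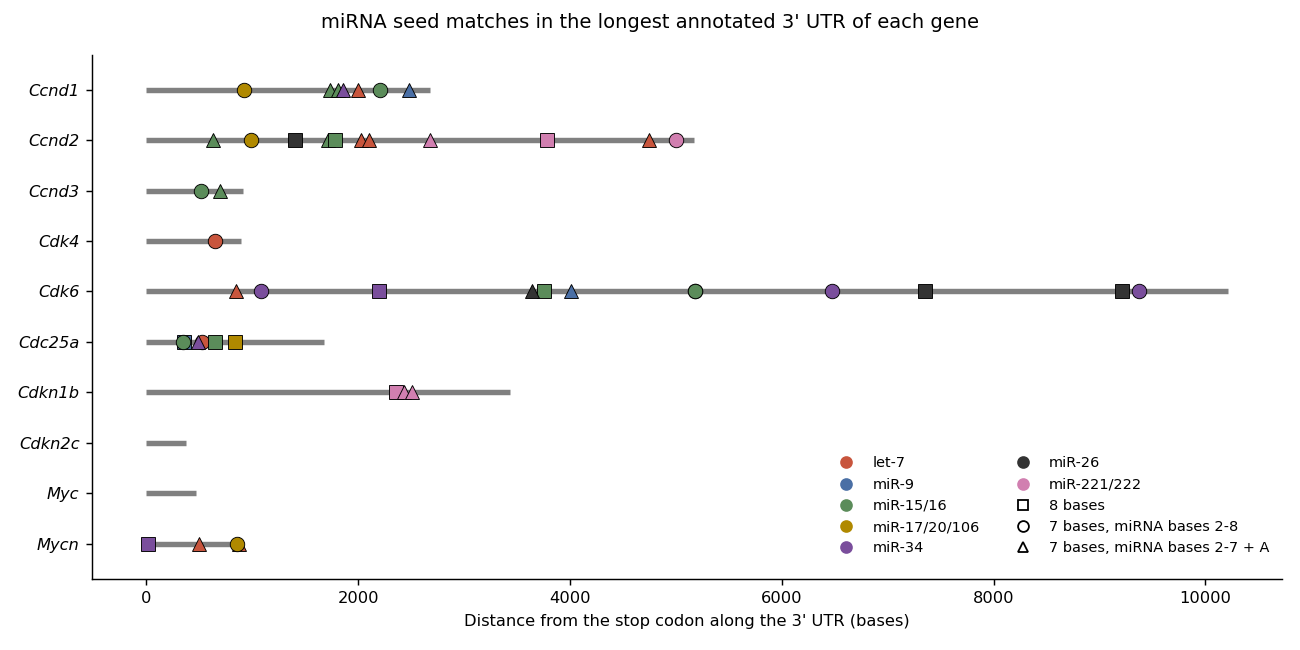
Seed matches of 7 miRNA families (colours) along the 3′ UTR of each gene, by distance from the stop codon in bases (horizontal axis); squares are 8-base sites, circles 7-base sites and triangles A-anchored sites. Cdk6 has the longest UTR with 12 sites, and Cdkn2c and Myc have none.

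The D-type cyclins, the regulatory partners that activate CDK4 and CDK6, did not pass the test (0 of 3 called). Ccnd1 (ENSMUSG00000070348, GRCm38 chromosome 7, 144929931 to 144939925, minus strand) had normalised read counts of 31373, 33338 and 33706 in the control libraries, against 28753, 33644 and 29910 with Dicer deleted. The groups overlapped, with an Rx-Dicer library close to the highest control. The difference on the log2 scale was -0.09 ± 0.11 (SE; adjusted p = 0.858, DESeq2). The 95% interval of the fold, 0.806 to 1.09, leaves out changes as large as a call requires. Its 3′ UTR of 2676 bases held 7 sites of 5 families, 3 of them for miR-15/16.

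Ccnd2 (ENSMUSG00000000184, chromosome 6, 127125162 to 127152193, minus strand) is the D-type cyclin most tied to radial glia, the progenitors of the cortex. Its counts were 32260, 56946 and 36716 in control libraries, against 45419, 43851 and 35870 with Dicer deleted. A single control library, replicate 2, held the highest value, and the other 5 lay between 32260 and 45419. The log2 difference was -0.01 ± 0.20 (adjusted p = 0.995, DESeq2). Without control replicate 2 it was 0.27, which did not pass the test either (adjusted p = 0.627). The Ccnd2 UTR of 5173 bases held 11 sites, among them 3 A-anchored let-7 sites. They are shown because Ccnd2 held more let-7 sites than any other of the 10 genes, with the matched bases in capitals.
Ccnd2 let-7 site, chr6:127128300-127128306, minus strand: agagtattcttTACCTCAggtttactggac
Ccnd2 let-7 site, chr6:127128222-127128228, minus strand: cgttttcctaaTACCTCAcagctataccgg
Ccnd2 let-7 site, chr6:127125586-127125592, minus strand: cttctgccatgTACCTCAgatctatcagtt
The transcript with these 3 words differed between the genotypes by less than the spread between replicates.

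Ccnd3 (ENSMUSG00000034165, chromosome 17, 47505051 to 47599691, plus strand), the D-type cyclin best known from blood and muscle lineages, had counts of 6495.6, 8429.9 and 7932.2 in controls, against 7823.5, 8581.6 and 11325.9 in Rx-Dicer embryos. Rx-Dicer replicate 3 stood highest and the groups overlapped. Rx-Dicer over control gave a log2 fold change of 0.28 ± 0.16 (adjusted p = 0.505, DESeq2), with a 95% interval of the fold from 0.970 to 1.52. Erythroid transcripts were at their 2 highest in Rx-Dicer replicate 3 and control replicate 2. There 9 markers summed to 22769 and 22969 CPM (reads scaled to a common library total), against 8630 to 11169 in the other 4 libraries. Ccnd3 was at its control maximum in control replicate 2 (8429.9). It was higher still (8581.6) in Rx-Dicer replicate 2, the library with the lowest erythroid sum (8630 CPM). The part of blood cells in the Ccnd3 values was not tested. With the 2 libraries highest in erythroid transcripts left out, the log2 fold change of Ccnd3 was 0.19 (adjusted p = 0.9998, DESeq2).

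Of the kinases, Cdk6 rose and Cdk4 was not called, and their point estimates had opposite signs. Cdk6 (ENSMUSG00000040274, chromosome 5, 3341485 to 3531008, plus strand), the less abundant partner of the D-type cyclins here, had counts of 1590, 1535 and 970 in controls, against 3130, 1979 and 1773 in Rx-Dicer embryos. Every Rx-Dicer library lay above every control library, with Rx-Dicer replicate 1 far above the rest and control replicate 3 lowest. Cdk6 rose by 0.75 ± 0.23 on the log2 scale, with an adjusted p of 0.0455 in DESeq2 and 0.271 in edgeR's quasi-likelihood test. The call therefore held in DESeq2, close to its threshold, and not in edgeR. Without Rx-Dicer replicate 1 the log2 fold change was 0.46 (adjusted p = 0.312, DESeq2), and without control replicate 3 it was 0.55 (adjusted p = 0.293). Leaving out control replicate 1 or 2 or Rx-Dicer replicate 2 also ended the call, with DESeq2 adjusted p from 0.0647 to 0.151 and log2 fold changes from 0.84 to 0.87.

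Microglial markers were uneven across these libraries as well. The 8 markers together made up 119 CPM in Rx-Dicer replicate 1, 70.5 in replicate 3 and 34.8 in replicate 2, against 29.7 to 36.1 in controls, and Cx3cr1 and Csf1r were called higher. Cdk6 too was highest in Rx-Dicer replicate 1 (3130). In Rx-Dicer replicate 2, where these markers were within the control range, Cdk6 was 1979, above the highest control value of 1590. With Rx-Dicer replicates 1 and 3 left out, the log2 fold change of Cdk6 was 0.53 and was not called (adjusted p = 0.408), in a fit that has 1 Rx-Dicer library and assumes that it varies as the controls do. The 8 hypothalamus and eye field markers summed to 41.8 to 60.0 CPM in controls and 92.2 to 102 CPM in Rx-Dicer embryos, without overlap. Otp and Vax1 were called higher among them. What part microglia or these regions had in the Cdk6 result was not tested. In bulk tissue, more cells that express a gene and more transcript per cell cannot be told apart.

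The Cdk6 UTR was longer than that of 99.7% of the genes searched and held 12 sites of 5 families: 4 for miR-34, 3 each for miR-15/16 and miR-26, and 1 each for let-7 and miR-9. Of the miR-15/16 sites 2 overlap each other. Such matches are common in long UTRs. Among the 615 genes with a 3′ UTR of at least 5108 bases, 65.5% held a miR-34 site of any kind and 73.5% a miR-15/16 site. For miR-26 the share was 66.5%, for miR-9 65% and for let-7 55.6%. The let-7 site and the 8-base sites of miR-15/16 and miR-34 are shown because Cdk6 is the gene that was called. Its 2 8-base sites for miR-26 are not shown, and a link between any site and the call was not tested.
Cdk6 let-7 site, chr5:3521639-3521645, plus strand: aggagtgagtgTACCTCAgataggttttaa
Cdk6 miR-15/16 site, chr5:3524545-3524552, plus strand: gttgcacagggTGCTGCTAtctcaaagaca
Cdk6 miR-34 site, chr5:3522993-3523000, plus strand: tctgctgccgaCACTGCCAacgctcgagac

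Cdk4 (ENSMUSG00000006728, chromosome 10, 127063534 to 127067920, plus strand), the more abundant of the kinases, had counts of 34679, 36342 and 35195 in controls, against 30676, 27621 and 31425 in Rx-Dicer embryos. The Rx-Dicer libraries all lay below the controls, and the values within each group were close together. The log2 fold change was -0.24 ± 0.11, with an adjusted p of 0.248 in DESeq2 and 0.314 in edgeR, so Cdk4 was not called. The 95% interval of the fold ran from 0.731 to 0.976. The value stayed below 0 in each of 17 alternative analyses, from -0.36 to -0.18, without passing the test in any. Its UTR of 899 bases held 1 site, for let-7, shown because it was the only match of Cdk4 to any of the families.
Cdk4 let-7 site, chr10:127067673-127067679, plus strand: gggcccgaggcCTACCTCccctcatccata

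Within each library, Cdk6 made up 1.05, 0.971 and 0.636% of the Cdk4 and Cdk6 reads per kb of exon in controls and 2.32, 1.64 and 1.29% in Rx-Dicer embryos. The mean was 0.887 ± 0.221% (SD, n = 3) in controls and 1.75 ± 0.520% (n = 3) in Rx-Dicer embryos. The log2 ratio of Cdk6 to Cdk4 was higher by 0.98 in Rx-Dicer embryos, and the groups did not overlap (exact permutation test, two-sided, p = 0.1, the smallest that 3 against 3 allows). Cdk4 thus outnumbered Cdk6 by 117 ± 33.9 times in controls and 59.5 ± 17.1 times in Rx-Dicer embryos (SD, n = 3 each), per kb. Dividing by the length of all annotated exons understates a gene wherever shorter transcripts are used, equally in both groups if the same transcripts are used. That length was 13989 bases for Cdk6 and 3249 for Cdk4, whose longest 3′ UTR had 899 bases. Both genes can be understated, so the ratio of Cdk4 to Cdk6 may be too high or too low.

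**Figure D4:**
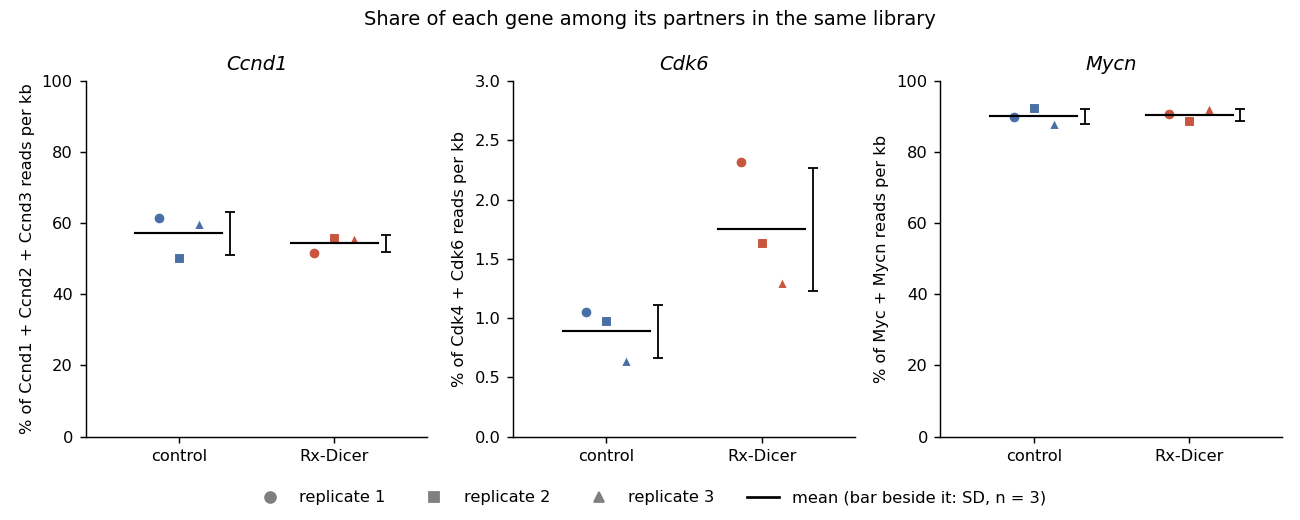
Share of Ccnd1, Cdk6 and Mycn (vertical axis, % of the reads per kb of the genes named on each axis) in 3 control (blue) and 3 Rx-Dicer (red) libraries, with means (lines) and SD (bars). The Cdk6 axis ends at 3%; its groups do not overlap, from 0.636 to 1.05% in controls and from 1.29 to 2.32% in Rx-Dicer embryos, while those of Ccnd1 and Mycn do.

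The balance among the D-type cyclins differed by less than its spread. Ccnd1 took 57.2 ± 6.08% of the D-type cyclin reads per kb in controls and 54.3 ± 2.34% in Rx-Dicer embryos (SD, n = 3 each; exact permutation test on the log2 ratio to the other two, two-sided, p = 0.5, smallest possible 0.1). Ccnd2 took 35.7 ± 6.26% and 36.9 ± 3.79%, and Ccnd3 took 7.07 ± 0.422% and 8.82 ± 2.12%. The Ccnd3 share is understated if its transcripts are shorter than its 8775 annotated exon bases by more than those of Ccnd1 and Ccnd2 are. The 11.3% of Ccnd3 in Rx-Dicer replicate 3 was the highest, and its share in the other 5 libraries ran from 6.82 to 7.65%.

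Cdc25a (ENSMUSG00000032477, chromosome 9, 109875579 to 109893895, plus strand), the phosphatase that activates the kinases of G1 and S phase, had counts of 3971, 4400 and 4327 in controls, against 4221, 5154 and 4793 in Rx-Dicer embryos. Rx-Dicer replicates 2 and 3 lay above the controls and replicate 1 among them. The log2 difference was 0.16 ± 0.12 (adjusted p = 0.695, DESeq2), with a 95% interval of the fold from 0.943 to 1.32. Cdc25a and Cdk4 were the genes among the 10 whose let-7 match covered bases 2 to 8. In its UTR of 1676 bases Cdc25a held 6 sites of 5 families, of which the let-7 site and an 8-base miR-15/16 site are shown for comparison with Cdk6.
Cdc25a let-7 site, chr9:109892747-109892753, plus strand: catcctaggagCTACCTCtacttttaattt
Cdc25a miR-15/16 site, chr9:109892870-109892877, plus strand: cagaccagtatTGCTGCTActcaaagtcaa

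Neither of the CDK inhibitors was called, and both point estimates were below 0. Cdkn1b (ENSMUSG00000003031, chromosome 6, 134920401 to 134925513, plus strand) encodes p27, which blocks cyclin E and A with CDK2 and helps to assemble cyclin D with its kinases. It had counts of 5923, 5262 and 4815 in controls, against 4359, 5224 and 4627 in Rx-Dicer embryos. The groups overlapped through Rx-Dicer replicate 2. Rx-Dicer over control gave a log2 fold change of -0.17 ± 0.13 (adjusted p = 0.682, DESeq2), with a 95% interval of the fold from 0.743 to 1.06. Its 3 sites were all for miR-221, at bases 2357, 2434 and 2513 of the UTR, and the first, of 8 bases, is shown because p27 is a textbook target of that family.
Cdkn1b miR-221 site, chr6:134924431-134924438, plus strand: aaaagcattggATGTAGCAttgcgcaatta

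Cdkn2c (ENSMUSG00000028551, chromosome 4, 109660876 to 109667189, minus strand) encodes p18, which binds CDK4 and CDK6 and keeps D-type cyclins off them. It had counts of 732, 894 and 607 in controls, against 465, 431 and 684 in Rx-Dicer embryos. Rx-Dicer replicates 1 and 2 lay below all controls, and replicate 3 lay between control replicates 1 and 3. The log2 fold change was -0.50 ± 0.21, with an unadjusted p of 0.0202 and an adjusted p of 0.238 in DESeq2. Without Rx-Dicer replicate 3 it was -0.73 and was called (adjusted p = 0.0319). Cdkn2c had the shortest UTR of the 10, and no site of the 7 families was found in it.

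The MYC genes showed no difference beyond the spread. Myc (ENSMUSG00000022346, chromosome 15, 61985391 to 61990374, plus strand) was scarce, with counts of 580, 541 and 532 in controls, against 630, 484 and 617 in Rx-Dicer embryos. The Rx-Dicer libraries lay on both sides of the controls. The log2 difference was 0.07 ± 0.16 (adjusted p = 0.951, DESeq2), with a 95% interval of the fold from 0.841 to 1.31. No site of the 7 families was found in its UTR of 466 bases.

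Mycn (ENSMUSG00000037169, chromosome 12, 12936093 to 12941914, minus strand), the MYC gene of embryonic neural progenitors, had counts of 6218, 7936 and 4698 in controls, against 7456, 4589 and 8761 in Rx-Dicer embryos. Its values varied about as widely inside each group as between all 6 libraries. Rx-Dicer over control gave a log2 fold change of 0.14 ± 0.23 (adjusted p = 0.909, DESeq2), with a 95% interval of the fold from 0.808 to 1.51. The lowest Mycn values were those of control replicate 3 and Rx-Dicer replicate 2, in which the dorsal telencephalic genes Emx2 (4997 and 5466) and Otx1 (3105 and 2568) were also lowest, genes singled out after their values were seen. How much regional makeup of the dissected pieces weighs in Mycn was not tested. Mycn held 2 A-anchored let-7 sites, at bases 501 and 872 of a UTR of 913 bases. Both are shown because the UTR is short.
Mycn let-7 site, chr12:12936499-12936505, minus strand: tactgtaagaaTACCTCAatgtttgagggg
Mycn let-7 site, chr12:12936128-12936134, minus strand: gcactttgaaaTACCTCAtgtttatgaaaa
Mycn made up 90.0 ± 2.23% of the Myc and Mycn reads per kb in controls and 90.5 ± 1.75% in Rx-Dicer embryos (SD, n = 3 each; exact permutation test on the log2 ratio, two-sided, p = 0.8).

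Per kb of exon, the control libraries gave an order of levels in which no neighbours overlapped. The divisor is the union of all annotated exons, which can be longer than the transcripts in use, so the order depends on it. It was 8775 bases for Ccnd3 and 8023 for Cdc25a, whose longest 3′ UTRs had 915 and 1676 bases. Cdk4 stood first with 10897 ± 262 normalised reads per kb (SD, n = 3), followed by Ccnd1 with 6967 ± 266, Ccnd2 with 4461 ± 1398 and Mycn with 1907 ± 492. Cdkn1b followed with 1172 ± 122, Ccnd3 with 868 ± 114, Cdc25a with 528 ± 28.6, Cdkn2c with 277 ± 53.6, Myc with 203 ± 9.49 and Cdk6 with 97.6 ± 24.5. In Rx-Dicer embryos the first 4 kept their places without overlap. Ccnd3 (1053 ± 210) and Cdkn1b (1041 ± 97.2) overlapped there, as did Myc (212 ± 29.7) with Cdkn2c (196 ± 51.2) and Cdkn2c with Cdk6 (164 ± 52.3), so that Cdk6 was no longer set apart at the bottom.

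The wider network around these genes was counted over 7 lists with 78 genes, of which 76 could be tested. One of them, Mxd3, was called by DESeq2 and none by edgeR, where 2.93% and 0.0446% of all genes were called, and 10 of the 76 had an unadjusted p under 0.05 in DESeq2, as 13.1% of all tested genes did. Mxd3 encodes a partner of MAX that competes with MYC proteins and is expressed in dividing progenitors. It had counts of 1284, 1515 and 1333 in controls, against 955, 777 and 922 in Rx-Dicer embryos, and the groups did not overlap. Mxd3 fell by 0.64 on the log2 scale (SE 0.14, adjusted p = 0.00140 in DESeq2 and 0.12 in edgeR's quasi-likelihood test). With the 2 globin-rich libraries left out, its log2 fold change was -0.59 and was not called (adjusted p = 0.178). The other 10 genes of the MAX network were not called, and their log2 fold changes ran from -0.19 for Zbtb17 to 0.17 for Mga. Max, the shared partner, was at 0.09 and Mycl, a further MYC gene, at -0.18.

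Cdkn1a (p21), a CDK inhibitor that p53 induces, had the largest point estimate of the network. It was read 1218, 676 and 482 times in the control libraries, against 3548, 1159 and 2076 times with Dicer deleted (normalised). The groups overlapped through control replicate 1 and Rx-Dicer replicate 2. The log2 fold change was 1.51 ± 0.60 and was not called (adjusted p = 0.172 in DESeq2, 0.232 in edgeR). Without control replicate 1, and again without Rx-Dicer replicate 2, it was called. The other CDK inhibitors with enough reads were Cdkn1c (-0.02 ± 0.17), Cdkn2d (-0.34 ± 0.13) and Cdkn3 (-0.22 ± 0.17), none of them called. Cdkn2d (p19), which binds CDK4 and CDK6 as p18 does, lay lower in all 3 Rx-Dicer libraries (922 to 1028) than in any control (1153 to 1295), with an adjusted p of 0.139. Cdkn2a and Cdkn2b were near 0 in every library and were not tested.

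Downstream of the D-type cyclins, 0 of 13 genes of the RB and E2F list were called, with a median log2 fold change of 0.10. Rb1, the substrate of CDK4 and CDK6, was at 0.20 ± 0.15 (adjusted p = 0.668) and E2f1, an activator of S phase genes, at 0.06 ± 0.14 (adjusted p = 0.947, DESeq2). E2f7, a repressor of the E2F programme, had the smallest adjusted p of the list (0.141, log2 fold change 0.34 ± 0.13). Of cyclins E and A with CDK2, 0 of 5 were called, with a median of -0.02. Ccne2 was at 0.43 ± 0.16 (adjusted p = 0.149), Ccne1 at -0.03 ± 0.13 and Cdk2 at -0.02 ± 0.12. Without Rx-Dicer replicate 1, E2f5, E2f7 and Ccne2 were called.

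None of the 13 genes for turnover of p27 and cyclins or assembly of their complexes was called (median -0.04). Skp2, the ligase subunit that marks p27 for degradation, was at 0.07 ± 0.11, and Cdc25c had the smallest adjusted p of this list (0.206, log2 fold change -0.32 ± 0.13). Of 15 growth genes that MYC drives, 0 were called (median 0.08), and Gnl3, a nucleolar protein of stem cells, had the smallest adjusted p (0.283, log2 fold change 0.31 ± 0.14). Of 15 S phase and mitosis genes, 0 were called (median -0.02) and their log2 fold changes ran from -0.17 to 0.06. Mki67 was at 0.00070 ± 0.16 and Ccnb1 had the smallest adjusted p of that list (0.626). edgeR called none of the genes on these lists, and genes at an unadjusted p under 0.05 in DESeq2 numbered 2 among the other CDK inhibitors, 1 in the MAX network, 1 among RB and E2F, 1 among cyclins E and A, 4 among turnover and assembly, 1 among growth genes and 0 among S phase and mitosis genes, beside 13.1% of all tested genes.

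**Figure D5:**
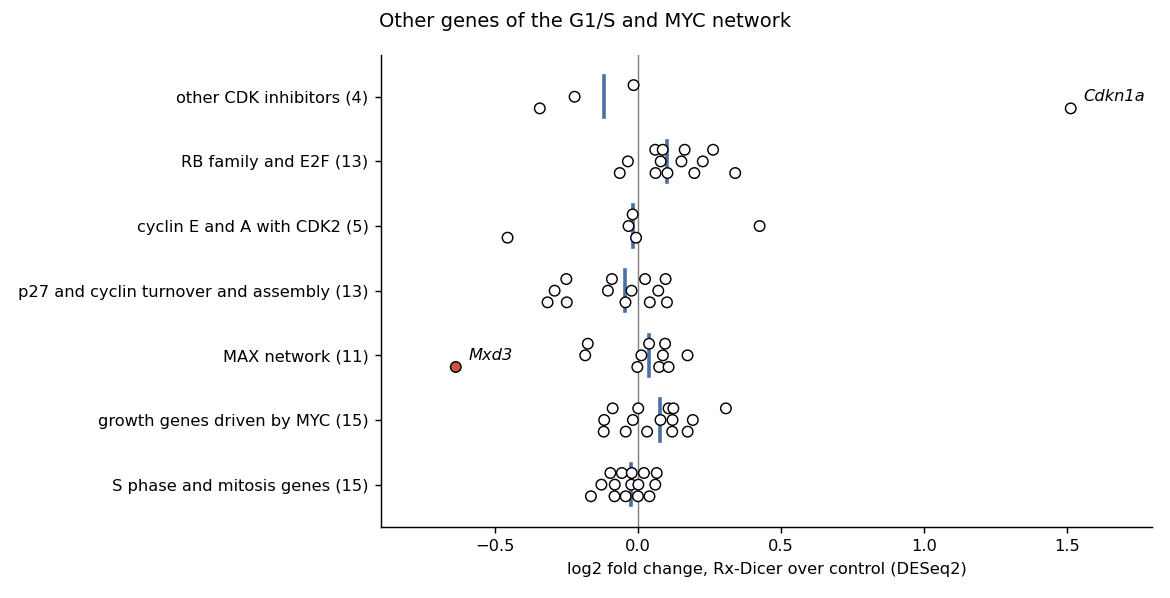
DESeq2 log2 fold change of Rx-Dicer over control (horizontal axis) for the 76 tested genes of the wider network, by list with the number of genes in brackets; filled points are called and blue bars are list medians. Mxd3 is the filled point at -0.64, and Cdkn1a stands at 1.51 without being called.

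The libraries held 34471501 to 48373468 counts on genes. Dicer1 had counts of 6270 to 7070 in controls and 4644 to 7002 in Rx-Dicer embryos (log2 fold change -0.26 ± 0.17, adjusted p = 0.567, DESeq2), a sum over the whole gene that does not measure the deleted exons alone. Of the telencephalon markers 5 of 5 were read in every library. So was Vax1 of the hypothalamus and eye field list (at least 144 raw reads), so being read does not identify the tissue. The telencephalon markers summed to 751 to 1056 CPM in controls and 837 to 1052 in Rx-Dicer embryos, with Six3 called higher. Neural progenitor markers summed to 3604 to 3907 and 3325 to 3842 CPM, with Fabp7 and Pax6 called lower of 8, and neuronal markers to 1627 to 2226 and 1402 to 2004 CPM, with 0 of 8 called. Mesenchyme (787 to 1825 and 1229 to 1662 CPM), endothelium (174 to 179 and 101 to 237 CPM) and erythroid lists (10202 to 22969 and 8630 to 22769 CPM) had no called gene among 8, 8 and 9. Hypothalamus and eye field markers are given with Cdk6 above. The part of cell makeup or region in the values of the 10 genes was not tested.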

How the data were processed

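Reads had been trimmed with Trim Galore 0.6.5, aligned to GRCm38.p6 with HISAT2 and counted per Ensembl gene with HTSeq 0.12.4 by strand, in union mode, per the labels and the study's methods. The authors deposited raw counts in 12 files, 2 runs for each of 6 samples, which were summed. Counting by strand keeps antisense genes apart, and reads on more than 1 gene or place were not counted. Genotypes were compared over all genes with DESeq2 1.42.0 (Wald test on genotype alone, median-of-ratios size factors, Benjamini-Hochberg adjusted p after independent filtering, R 4.3.3) and with edgeR 4.0.16 (quasi-likelihood test, TMM, at least 10 counts in at least 3 samples). Both were tested on simulated data with 200 genes changed 2-fold (medians of 3 draws, no minimum fold change for edgeR). Of the calls, 25.2% were wrong with DESeq2 and 9.23% with edgeR, in both a larger share than the adjusted p threshold allows. DESeq2 recovered 83% of the changed genes and edgeR 65.5%. Intervals are normal approximations of the Wald fit. Levels per kb were divided by the union of exons in GENCODE M21. A count of 3, the detection floor, was 0.0620 to 0.0870 CPM and covers counting error only. The genes and lists were chosen with earlier results of these data known. Named were the 10 genes, the calls or smallest adjusted p of each list, and 14 network genes picked for their role. The seed search left out miR-124. One marker gene counted in its list is not reported by name.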

Additional observations from a re-analysis of the deposited data

How the results depend on the processing

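Of the 10 genes, DESeq2 called 1 (Cdk6). The count was 0 in edgeR's quasi-likelihood test, without independent filtering, without the libraries richest in globin (control 2, Rx-Dicer 3) and without those richest in microglial markers (Rx-Dicer 1 and 3), the last pair of settings chosen after seeing the data. Leaving out 1 library gave 0 to 2 genes, with Cdkn2c added without Rx-Dicer replicate 3. The adjusted p of Cdk6 ran from 0.00315 to 0.408 over 17 alternatives, and its log2 fold change stayed positive, from 0.46 to 1.0. In the wider network 1 gene (Mxd3) was called, against 0 in edgeR, 0 without the globin-rich libraries and 1 to 4 without 1 library. The replicate numbers were not taken to pair the samples. Deviations of same-numbered samples correlated at -0.13 to 0.17, and not every sample correlated best with its own number. The study compared mutants with control littermates, but the sample titles do not give litters. Correlations from 3 libraries per group cannot show whether litters were shared. With the number as a block, 1 of the 10 genes was called, Cdk6, at its lowest adjusted p (0.00315, DESeq2). The network count was then 2 (Cdkn1a and Mxd3), and calls over all genes went from 502 to 314.

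Small differences changed sign. Ccnd2 (-0.0090) went to 0.0020 in edgeR, 0.019 with total-count scaling, 0.0013 in the first run alone, 0.027 with the replicate block, 0.37 without the globin-rich and 0.056 without the microglia-rich libraries, and ran from -0.17 to 0.27 without 1 library. Without the microglia-rich libraries, a fit with Rx-Dicer replicate 2 alone on that side, Ccnd1 was 0.030, Myc -0.19 and Mycn -0.46, and Mycn was lowest in that library. Without 1 library Myc ran from -0.0015 to 0.18 and Mycn from -0.0605 to 0.37. None of these 4 genes was called in any alternative. The cause was not tested. Of the log2 ratios within libraries, leaving out 1 library took Ccnd1 to the other D-type cyclins (-0.17) from -0.37 (without control replicate 2) to -0.0435 (without control replicate 1). It took Mycn to Myc (0.066) from -0.10 (without control replicate 3) to 0.26 (without control replicate 2), and to -0.0745 without Rx-Dicer replicate 3. Cdk6 to Cdk4 (0.98) stayed between 0.76 and 1.18. Every gene of the 10 had at least 423 reads per library. Chi-square per degree of freedom over all genes was 1.11 to 1.47 between runs of a sample and 20.5 to 29.6 between samples of a group.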
